A study of Mus musculus with 162 samples.

Results

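The liver (LIV) was compared with the 8 other organs collected from the same mice, across all genes and all fasting times. The members were chosen by the organ label alone: the series holds 18 libraries of each of 9 organs, and all 18 LIV libraries were set against those of the olfactory bulb (OB, 18), brain (BRN, 16), cerebellum (CBL, 18), brainstem (BST, 18), stomach (STM, 17), interscapular brown adipose tissue (iBAT, 17), perigonadal white adipose tissue (pgWAT, 18) and posterior-subcutaneous white adipose tissue (psWAT, 16). Not used were 6 libraries: replicate 3 at 8 h and replicate 1 at 18 h of BRN, replicate 3 at 12 h of STM, replicate 1 at 22 h of iBAT, and of psWAT replicate 2 at 22 h and replicate 3 at 12 h. All mice were wild-type C57BL/6J males aged 8 to 9 weeks with no transgene or deletion, all had water, and all were killed shortly after lights-off. Of the 18 mice, 3 were fed without limit (0 h) and 3 each had fasted for 2, 8, 12, 18 or 22 h, and every mouse gave all 9 organs. Libraries of the same time and replicate number were taken to come from the same mouse, which the sample titles do not state. The longer fasts also began at other times of day.

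Hepatocytes make most of the proteins of blood plasma, turn ammonia into urea, break down amino acids, synthesize bile acids and metabolize drugs, and in fasting they release glucose and ketone bodies for other organs. They do this under a set of transcription factors that includes HNF4α, the FOXA proteins and C/EBP proteins. A piece of liver also holds Kupffer cells (resident macrophages), sinusoidal endothelium, stellate cells and bile duct cells (cholangiocytes), together with blood. In bulk RNA, fewer cells of a type and less RNA per cell cannot be told apart.

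The LIV libraries held 6959200 to 12451777 counts each (median 8642327), and those of the other organs 3045845 to 27801717. By the column headers all LIV libraries were in lanes numbered 1 and 2, the 0 h and 2 h libraries in lane 1, the 8 h libraries in both, and the later ones in lane 2. Of the other organs only BRN (7 libraries) and iBAT (2) also had libraries with these lane numbers. Some of them carry the same sample number and lane number as a LIV library, such as BRN 12 h replicate 2 and LIV 0 h replicate 2. A shared lane number thus does not show a shared run, and lane and organ cannot be told apart for any organ. Within LIV, the times 0 and 2 h share a lane, as do 12, 18 and 22 h. White fat RNA was extracted with another kit than that of the other organs. Levels are given as normalized counts per 1000000 counts (normalized CPM), which are counts divided by the library total after TMM scaling. They compare 1 gene between libraries. Some libraries stood apart. LIV 12 h replicate 3 had the largest share of counts in its 10 most counted genes (28.3%, against 16.1 to 20.8% in the other LIV libraries) and from the mitochondrial genome (14.0%). LIV 12 h replicate 1 held the most skeletal muscle transcripts, with 960 normalized CPM summed over Acta1, Ckm, Myh4 and Tnnt3 against a median of 33.7 over the LIV libraries. Among the other organs pgWAT 18 h replicate 2, STM 12 h replicate 2 and STM 0 h replicate 3 held the most liver transcripts, and ratios that rest on these 3 libraries are also given without them.

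The label was borne out by both liver markers. Alb, which encodes serum albumin, lay between 79683 and 106730 normalized CPM in the 18 LIV libraries (median 95059). In the libraries of the other organs it ranged from 0 to 3223 with a median of 0.216. Cps1, which encodes the mitochondrial carbamoyl phosphate synthetase that opens the urea cycle, ranged from 1514 to 3429 in LIV (median 2122) and from 0 to 130 elsewhere. For both genes every LIV library lay above every other library, and pgWAT 18 h replicate 2 was the highest of the rest.

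The sequences around the start sites of 6 genes are shown because these genes mark both directions of the comparison: Alb, Serpina1e (an α1-antitrypsin), Fga and Fgb (fibrinogen chains) and Cyp1a2 (a drug-metabolizing P450) were LIV-high, that is, higher in LIV than in each of the other organs, and Oxct1, which encodes the enzyme that lets cells burn ketone bodies, was lower in LIV than in all other organs. Each sequence comes from RefSeq on GRCm38.p6 and runs 5′ to 3′ from 250 bases before the annotated start to 50 bases into the gene. The 6 genes were picked by name and not by a rule, so that they do not stand for their classes. Capitals mark motifs found by their letters. The letters GTTAAT were searched on both strands. For C/EBP the letters were TTGCNNAA on both strands. For HNF4 they were CAAAGTCCA on both strands. The TATA box was searched as TATAAA on the sense strand alone. The intervals are chr5:90460620-90460919 on the plus strand for Alb, chr12:103956848-103957147 on the minus strand for Serpina1e, chr3:83025903-83026202 on the plus strand for Fga, chr3:83049814-83050113 on the minus strand for Fgb, chr9:57683606-57683905 on the minus strand for Cyp1a2 and chr15:4026178-4026477 on the plus strand for Oxct1.
Alb: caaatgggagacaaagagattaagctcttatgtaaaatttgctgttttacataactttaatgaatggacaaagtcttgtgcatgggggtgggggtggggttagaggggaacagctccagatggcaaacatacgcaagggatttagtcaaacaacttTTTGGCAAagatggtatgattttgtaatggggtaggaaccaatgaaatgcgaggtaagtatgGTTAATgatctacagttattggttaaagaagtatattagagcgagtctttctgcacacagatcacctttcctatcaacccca
Serpina1e: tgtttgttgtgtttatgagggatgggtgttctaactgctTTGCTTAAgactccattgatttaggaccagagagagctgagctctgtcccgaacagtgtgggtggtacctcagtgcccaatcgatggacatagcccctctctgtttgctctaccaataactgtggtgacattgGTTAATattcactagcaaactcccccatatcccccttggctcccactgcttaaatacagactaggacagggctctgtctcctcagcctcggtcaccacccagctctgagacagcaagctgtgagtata
Fga: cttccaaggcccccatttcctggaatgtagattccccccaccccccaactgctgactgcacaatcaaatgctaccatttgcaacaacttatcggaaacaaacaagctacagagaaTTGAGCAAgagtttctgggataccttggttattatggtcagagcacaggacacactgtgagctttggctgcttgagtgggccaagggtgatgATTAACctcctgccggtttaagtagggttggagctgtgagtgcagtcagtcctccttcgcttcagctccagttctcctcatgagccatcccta
Fgb: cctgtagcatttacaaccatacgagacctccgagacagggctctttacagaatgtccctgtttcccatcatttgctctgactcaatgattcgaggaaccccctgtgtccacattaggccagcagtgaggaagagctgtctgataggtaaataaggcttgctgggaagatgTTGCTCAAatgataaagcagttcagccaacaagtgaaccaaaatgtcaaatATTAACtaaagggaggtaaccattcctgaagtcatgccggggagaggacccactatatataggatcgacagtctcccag
Cyp1a2: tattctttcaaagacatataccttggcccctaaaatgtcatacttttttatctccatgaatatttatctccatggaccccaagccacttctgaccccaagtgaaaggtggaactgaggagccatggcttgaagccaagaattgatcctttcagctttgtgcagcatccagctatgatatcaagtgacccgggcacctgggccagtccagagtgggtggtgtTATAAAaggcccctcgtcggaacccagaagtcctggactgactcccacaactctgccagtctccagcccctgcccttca
Oxct1: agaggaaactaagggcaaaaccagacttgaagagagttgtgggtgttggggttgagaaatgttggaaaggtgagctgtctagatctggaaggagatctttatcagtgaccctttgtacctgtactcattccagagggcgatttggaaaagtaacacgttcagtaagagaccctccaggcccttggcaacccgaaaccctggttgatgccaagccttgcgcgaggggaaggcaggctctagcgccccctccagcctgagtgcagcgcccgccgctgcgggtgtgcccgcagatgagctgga

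The letters GTTAAT lay 32 bases before the start in Alb, 78 in Serpina1e, 43 in Fga and 29 in Fgb, and the C/EBP letters lay further out in all 4, from 80 bases in Fgb and 94 in Alb to 211 in Serpina1e. Cyp1a2 held TATAAA 29 bases before its start and none of the other motifs. Oxct1 held none of the motifs searched. Of the 1461 genes higher in LIV than in all 8 organs, 968 (66.3%) had a sequence in the table, so that a share of motifs over this class is void and none is given. Among lists with at least 80% of their members in the table, the letters GTTAAT were found in 9 of 16 plasma carrier genes, 6 of 20 coagulation genes, 5 of 30 drug metabolism genes, 2 of 16 hepatocyte transcription factors, 2 of 13 hepatokine genes and 0 of 25 genes of the ER secretory machinery, against 7.20% of all 27025 promoters of the same length. Of these promoters 10.8% held the C/EBP letters, 0.477% the HNF4 letters and 8.88% TATAAA. Lists with under 80% of their members in the table, among them apolipoproteins, acute phase and urea cycle, are not given. The Serpina1 genes are near-identical tandem copies and count several times. A match is a run of letters and not a measured binding site.

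Gene expression in LIV was set against the mean of the 8 other organs, taken over their log2 levels with each organ weighted equally. A gene can be higher than this mean while some organs lie above LIV. Of 21701 genes tested 4644 (21.4%) were higher in LIV and 6543 (30.2%) lower, at an adjusted p under 0.05 in edgeR's quasi-likelihood test and an absolute log2FC over 1. The median log2FC of all genes was -0.34, and of the genes called 41.5% were higher. With library totals alone in place of TMM scaling the median was -1.07, 2799 genes were higher and 9492 lower, so that 22.8% of the calls were higher. Levels and folds below are on the TMM scale. Genes called higher in each of the 8 single contrasts were named LIV-high and numbered 1461 (6.73%), and those called lower in each were named LIV-low and numbered 1982 (9.13%). The 8 contrasts share the 18 LIV libraries. LIV against OB gave 6198 genes higher (28.6%) and 7708 lower (35.5%), against BRN 6113 (28.2%) and 7499 (34.6%), against CBL 6446 (29.7%) and 7549 (34.8%), and against BST 6258 (28.8%) and 7924 (36.5%). Against STM 4301 genes were higher (19.8%) and 6949 lower (32.0%), against iBAT 4588 (21.1%) and 6187 (28.5%), against pgWAT 4139 (19.1%) and 7571 (34.9%), and against psWAT 4005 (18.5%) and 7995 (36.8%). Among libraries with lane numbers 1 and 2, with lane number as a term in edgeR, 17378 genes were tested. Of these 5152 were higher in LIV than in BRN and 6060 lower. They included 4945 and 5886 main calls, or 80.9% and 78.5% of the main calls against BRN. Against the 2 iBAT libraries with these numbers 4179 were higher and 3691 lower. They included 3215 and 3236 main calls, or 70.1% and 52.3% of the main calls against iBAT. The 2 iBAT libraries included 22 h replicate 2, with 3156101 counts. As the sequencing runs are not known, this fit does not separate lane from organ.

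The LIV-high genes took up much of the liver's mRNA. They held 43.1 to 53.1% of the counts of a LIV library (median 50.6%) and 2.14 to 6.78% of those of other libraries (median 2.70%). The LIV-low genes held a median of 0.319% of LIV counts and 13.6% elsewhere. Both classes were chosen by these levels, so that the shares are a description. For 1010 of the 1461 LIV-high genes every LIV library lay above every other library, as was so for 1066 of all genes (4.91%). For 261 of the LIV-low genes every LIV library lay below, as for 288 of all genes (1.33%). The organ nearest to LIV was STM for 418 LIV-high genes, pgWAT for 410, iBAT for 220 and psWAT or one of the 4 brain regions for the remainder. At the threshold, Foxa3 at a log2FC of 0.995 to its nearest organ fell just outside the LIV-high class, and Trabd at 1.00 just inside.

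The 10 LIV-high genes with the largest share of LIV counts all encode secreted proteins. Alb alone took 5.98% of the counts, and its mean was 441-fold that of pgWAT, the nearest organ (log2FC 8.79). That ratio rests on pgWAT 18 h replicate 2, and without the 3 libraries with most liver transcripts it was 2393. Against the mean of the 8 organs its adjusted p was 4.25e-77 in edgeR's quasi-likelihood test. Apoe encodes the apolipoprotein by which remnant particles are taken up, and it was the only gene of the 10 with a level above 100 in every other library. It ranged from 24997 to 37554 normalized CPM in LIV (median 30412) and reached 7201 elsewhere, with a median of 1093. The log2FC to the nearest organ, pgWAT, was 2.85. Apoa1, the main protein of high-density lipoprotein, ranged from 16574 to 28467 in LIV (median 20432), and its highest value elsewhere was 2174 in STM 0 h replicate 3. All STM libraries stood above the other organs for this gene, and the LIV mean was 16.4-fold that of STM. Ttr (transthyretin, a carrier of thyroid hormone) reached 4274 in CBL 0 h replicate 2, against 10690 to 13960 in LIV (median 12348), and its levels in BRN, CBL and BST spread widely between libraries. Choroid plexus also makes this protein. Hp (haptoglobin, which binds free haemoglobin) was the only one of the 10 whose groups overlapped: 5498 to 18540 in LIV (median 7848) and up to 6147 in pgWAT 2 h replicate 1, with a log2FC of 1.16 to pgWAT. For Apoa2, Serpina3k, Serpina1e and Mup11 the LIV mean was 750-, 350-, 358- and 664-fold that of the nearest organ, and Apoc1 was 13.9-fold that of iBAT. Without the same 3 libraries the first 4 ratios were 3059, 871, 1911 and 3579. The Mup and Serpina1 genes have near-identical copies, and as only uniquely mapped reads were counted, how the counts divide among the copies is uncertain.

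**Figure D1:**
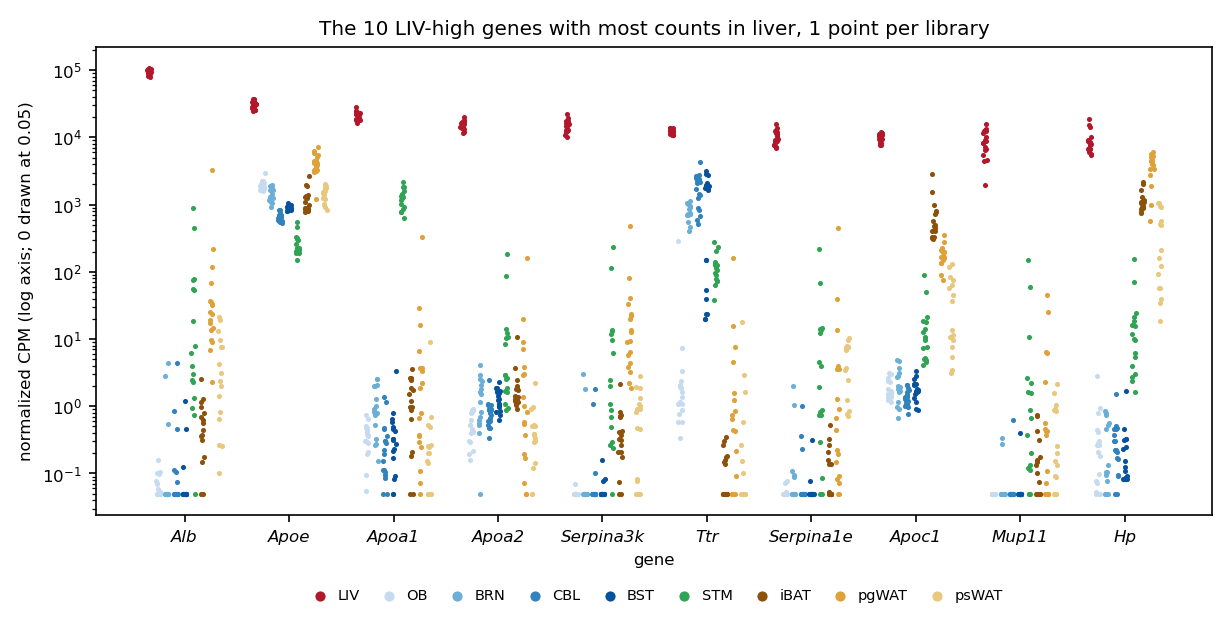
Normalized CPM on a log axis of the 10 LIV-high genes with the largest share of LIV counts, 1 point per library, with colours for the 9 organs and libraries at 0 drawn at 0.05. The LIV points stand above all others for every gene except Hp, where the highest pgWAT value (6147) exceeds the lowest LIV value (5498).

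The 10 genes most restricted to LIV, by log2FC to the nearest organ, depended on the 3 libraries with most liver transcripts: 3 of the genes were still among the 10 when these libraries were left out. With all libraries they included 2 P450 enzymes, a transporter and several pseudogenes. Cyp1a2, which oxidizes caffeine and aromatic amines, ranged from 611 to 1923 normalized CPM in LIV (median 1186), while its median elsewhere was 0 and its highest value 13.8, in pgWAT 18 h replicate 2. Its LIV mean was 1247-fold that of pgWAT, and 4460-fold that of the nearest organ (OB) without those libraries. Cyp2c37 ranged from 271 to 507 in LIV (median 383) and reached 6.05 elsewhere, and Slc17a3, an organic anion transporter, ranged from 149.3 to 395 (median 206) and reached 2.27. In all 3 genes the highest value outside LIV was in the same pgWAT library. Serpina4-ps1 ranged from 467 to 6124 in LIV (median 2747), a wide spread, and BC024386 from 912 to 2636 (median 1620.5). The others were Gtpbp4-ps1, Mug-ps1, CU041251.1, Gm27463 (annotated as a miRNA gene) and Gm7652. Gm7652 was the only one of the 10 with no count in any library outside LIV, where it ranged from 6.17 to 36.2 (median 16.8).

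Of all genes tested 6.73% were LIV-high and 21.4% higher than the mean, shares that stand beside the counts of each list below. Most lists hold genes of liver functions and were chosen with earlier results of these data known, so that their counts are a description. Plasma carrier and apolipoprotein genes were LIV-high throughout. All 20 plasma carriers and all 17 apolipoprotein and lipoprotein genes were called in all 8 contrasts, and in 20 and 16 of them every LIV library exceeded every other library. The exception was Apoa4, where LIV ranged from 128 to 232.2 (median 174) and STM 2 h replicate 1 reached 153.8. The median log2FC to the nearest organ was 8.61 for the carriers and 7.12 for the apolipoproteins, against -1.96 over all genes. Without the 3 libraries with most liver transcripts these medians were 10.2 and 7.12. Gc, the vitamin D carrier, had a LIV mean 379-fold that of STM (642-fold without them). Rbp4, the carrier of retinol, and Trf (transferrin, for iron) were nearer, at 10.5- and 12.5-fold the mean of pgWAT. Apoa5, which promotes the clearance of triglycerides, ranged from 1622 to 3363 in LIV (median 2561) and did not exceed 38.1 elsewhere.

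Among 23 coagulation genes 22 were LIV-high and all 23 were higher against the mean, beside 6.73% and 21.4% of all genes. Kng1, the source of bradykinin, ranged from 3409 to 4262 in LIV (median 3752) and reached 76.4 elsewhere. Vtn (vitronectin) had the most counts of the list, with 4056 to 5908 in LIV (median 5015) and 5.56 to 150.7 elsewhere. The 1 gene not LIV-high was Pros1, which encodes protein S, a cofactor of protein C. It ranged from 62.2 to 134.1 in LIV (median 81.7), and pgWAT 18 h replicate 1 reached 100.04. Its log2FC to pgWAT was 0.21, with overlapping libraries.

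Of 19 complement genes 17 were LIV-high. C3, the central component, ranged from 5047 to 8786 in LIV (median 5700), and its highest value elsewhere was 1301 in pgWAT. Its LIV mean was 7.02-fold that of pgWAT. C9 and Hc (complement C5), of the membrane attack complex, were 518- and 859-fold the mean of the nearest organ (2278- and 951-fold without the 3 libraries with most liver transcripts). C4b and C1s1 were closer to fat, at 3.33- and 3.23-fold the pgWAT mean, as was C6 at 13.0-fold, while Masp2, Mbl1 and Mbl2 were 297-, 456- and 410-fold the pgWAT mean (313-, 2755- and 1352-fold the nearest organ without the same 3 libraries). C2 did not differ from pgWAT by the threshold (log2FC 0.39), and Masp1 did not differ from OB (0.61). Cfb was at 1.16 to 7.21 in LIV (median 3.61), low but above the level of 3 counts, which averaged 0.543 over the LIV libraries.

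The acute phase genes included some that varied widely between the LIV libraries themselves. All 16 were higher than the mean of the other organs and 14 were LIV-high. Serpina3n and Lcn2 were exceptions, with a log2FC of -0.34 and -2.02 to pgWAT. Saa1, which encodes a serum amyloid A that rises in inflammation, was at 3308 normalized CPM in LIV 2 h replicate 2, 1469 in LIV 2 h replicate 3, 613 in LIV 12 h replicate 2 and 376 in LIV 0 h replicate 3. Its median over the 18 LIV libraries was 79.6 and its lowest value 22.7. Saa2 was highest in the same 4 libraries, at 2688, 587, 351 and 182, against a median of 19.8. Saa1 and Saa2 are near-identical neighbours. Of the 16 members 11 had their highest LIV value in LIV 2 h replicate 2, as did 13 of 19 complement and 10 of 23 coagulation genes. In that library Fga (4734 against a median of 1313), Hp (18540 against 7848) and Hpx, which encodes the haem carrier hemopexin (13894 against 5143), were also highest. The 2 h group thus held both the highest libraries and, in its replicate 1, one at 31.6 for Saa1. The summed Kupffer cell markers were 468 normalized CPM in LIV 2 h replicate 2, 435 in replicate 3, 389 in LIV 12 h replicate 2 and 587 in LIV 0 h replicate 3, against a median of 340 over LIV. They reached 471 in LIV 22 h replicate 1, where Saa1 was at 263, and 441 in LIV 22 h replicate 2, where Saa1 was at 57.7. Their part in the acute phase levels was not tested.

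The urea cycle was LIV-high in all 8 genes, each with every LIV library above all others. Otc, which joins carbamoyl phosphate to ornithine, ranged from 653 to 1220 in LIV (median 864) and did not exceed 21.2 elsewhere. Slc25a15, the mitochondrial ornithine carrier, was the least restricted: 277 to 519 in LIV (median 391) and 3.61 to 48.1 elsewhere. The LIV mean was 10.0-fold that of iBAT.

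Amino acid catabolism gave 25 LIV-high genes of 27. Mat1a, the liver's methionine adenosyltransferase, ranged from 2500 to 5245 (median 3597) and was 580-fold the pgWAT mean (2206-fold that of STM without the 3 libraries with most liver transcripts). Tat, Bhmt and Sds, which degrade tyrosine, remethylate homocysteine and deaminate serine, were 1093-, 1193- and 1095-fold the nearest organ (4340-, 2717- and 1095-fold without them). Sds varied 237 to 2103 between LIV libraries (median 620). Gstz1, of tyrosine breakdown, was as high in pgWAT as in LIV (log2FC -0.09). Got1, the cytosolic aspartate aminotransferase of the malate-aspartate shuttle, was higher in LIV than in 4 organs, and its mean was highest in BST, with a log2FC of -0.52. It ranged from 108 to 709 in LIV (median 310).

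Genes of glucose handling were LIV-high in 11 of 14. G6pc, which encodes the phosphatase that frees glucose, ranged from 133.6 to 687 in LIV (median 326), with a median of 0 and a highest value of 5.75 elsewhere. Pck1, the cytosolic carboxykinase of gluconeogenesis, was not LIV-high because iBAT also expressed it. It ranged from 882 to 13718 in LIV (median 7979) and reached 6781 in iBAT 8 h replicate 1, and the log2FC to iBAT was 0.71. The lowest LIV value, 882, was in LIV 0 h replicate 3, while the other 0 h libraries were at 8068 and 8170. Pcx, pyruvate carboxylase, was lower in LIV than in pgWAT with a log2FC of -1.27, and Pygl, the liver glycogen phosphorylase, was at -0.31 to iBAT.

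Ketogenesis genes were shared with other organs. All 5 genes were higher than the mean, but 3 of them were not LIV-high. Acat1, the mitochondrial thiolase also used for ketone breakdown, was lower in LIV (311 to 565, median 447) than in iBAT, where it reached 2186. The log2FC was -1.82.

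Bile acid genes were LIV-high in 18 of 19. Cyp7a1, the rate-limiting enzyme of bile acid synthesis, ranged from 66.6 to 489 (median 190) in LIV and reached 7.26 elsewhere. Abcb11, the canalicular bile salt pump, ranged from 412 to 730 (median 604). Slco1a4, a transporter also found at the blood-brain barrier, was not LIV-high: 25.6 to 149.1 in LIV (median 78.8) and up to 67.7 in BST, with a log2FC of 0.62. Of the 36 drug metabolism genes 32 were LIV-high. Ces3a, a carboxylesterase, ranged from 2486 to 4758 (median 3916) and reached 60.5 elsewhere. Cyp2e1, the ethanol-inducible P450, had the most counts of the list in LIV (4824 to 11507, median 7906) and was also high in pgWAT, with a highest library of 9003 and a log2FC of 0.79 between LIV and pgWAT. Por, which passes electrons to the P450s, was at 0.89 to pgWAT and Ephx2 at 0.84 to iBAT.

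**Figure D2:**
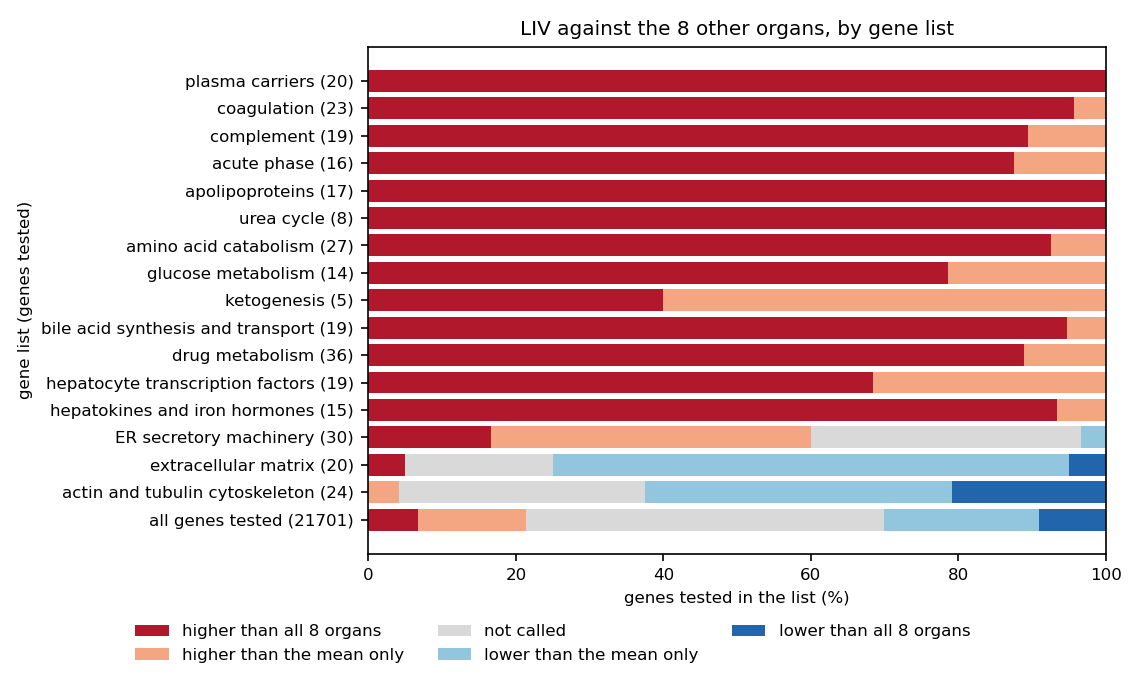
Share of the tested genes of each list (bars, %, with the number of genes in parentheses) that were called higher in LIV than all 8 organs, higher than their mean only, not called, lower than the mean only, or lower than all 8 organs. The first 13 lists hold no gene called lower, while 15 of 20 extracellular matrix genes and 15 of 24 cytoskeleton genes were lower.

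The transcription factors of hepatocytes were less restricted than the genes of plasma proteins. All 19 were higher than the mean of the other organs and 13 were LIV-high, with a median log2FC to the nearest organ of 2.33. Hnf4a ranged from 746 to 1494 in LIV (median 1074) and reached 139.5 in STM, 0 being its median elsewhere. Foxa1 had a median of 42.1 in LIV and reached 154.7 in STM, and its log2FC of -0.99 to STM did not pass the threshold. Foxa2 and Foxa3 had a log2FC of 0.77 and 0.995 to STM. Cebpa and Cebpb overlapped with iBAT (log2FC -0.54 and 0.45), and Ppara, which drives fatty acid oxidation, was lower in LIV than in iBAT with a log2FC of -1.52. The nuclear receptor Nr1i3 (CAR) ranged from 483 to 1992 in LIV (median 1409) and reached 13.5 elsewhere.

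Of 15 hepatokine and iron hormone genes 14 were LIV-high. Hamp, which encodes the iron hormone hepcidin, ranged from 871 to 2478 (median 1574) and reached 22.9 elsewhere. Igf1, the growth hormone-dependent growth factor, ranged from 1077 to 1928 (median 1545), and its mean was 4.64-fold that of pgWAT. Ghr, the growth hormone receptor, was at -0.73 to pgWAT. Fgf21 was LIV-high by the test but at 0 to 4.01 in LIV (median 1.08), close to the level of 3 counts.

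The machinery of the secretory pathway differed less from the other organs than its cargo did. Over all genes 21.4% were higher than the mean, 30.2% lower and 6.73% LIV-high. Of the 30 genes of this list 18 were higher in LIV than the mean, 1 was lower, 11 were not called and 5 were LIV-high. Their median log2FC to the nearest organ was 0.37. With library totals alone 8 were higher and 2 were LIV-high. On the TMM scale the 5 were Sec24a (log2FC 2.91 to STM), Lman1 (1.74 to iBAT), Hsp90b1 (1.24), Calr (1.14) and P4hb (1.03), the last 3 with STM nearest. Sec24a is a cargo adaptor of COPII vesicles, Lman1 the receptor that exports factors V and VIII, and the other 3 are ER chaperones or a disulfide isomerase. Spcs1, a signal peptidase subunit, was lower (log2FC -1.47 ± 0.12 SE against the mean) while Spcs2 and Spcs3 had a log2FC of 0.70 and 0.68, under the threshold of 1. LIV 0 h replicate 3 had the highest LIV value for 17 of the 30 genes, with Hspa5 (the chaperone BiP) at 3130 against a median of 880.

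The same set of reactions was often served by a different gene in LIV. Values per kilobase of exon are compared here, since they concern 2 genes. Hk1, the hexokinase of most tissues, stood at a mean of 0.439 normalized CPM per kb in LIV and 2.53 to 32.1 elsewhere. Pklr and Pkm, the liver and general pyruvate kinases, were at 108 and 3.69 in LIV, while the organ means elsewhere reached 7.53 for Pklr and lay between 41.1 and 185 for Pkm. Pygl exceeded Pygb in LIV (83.1 and 0.985). Hk1, Pfkp, Pkm, Pygb, Aldoa and Oxct1 were all LIV-low. The pattern was not general: Pfkl, called the liver phosphofructokinase, was at 8.46 per kb in LIV, against 9.34 to 87.97 elsewhere, and was lower than the mean (log2FC -1.16 ± 0.09 SE). Oxct1, used to burn ketone bodies, was at 1.77 per kb in LIV and at 38.1 to 153.2 in the other organs. Oxct1 ranged from 3.03 to 21.5 normalized CPM in LIV (median 5.30) and from 76.9 to 817 elsewhere, so that the groups did not overlap.

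**Figure D3:**
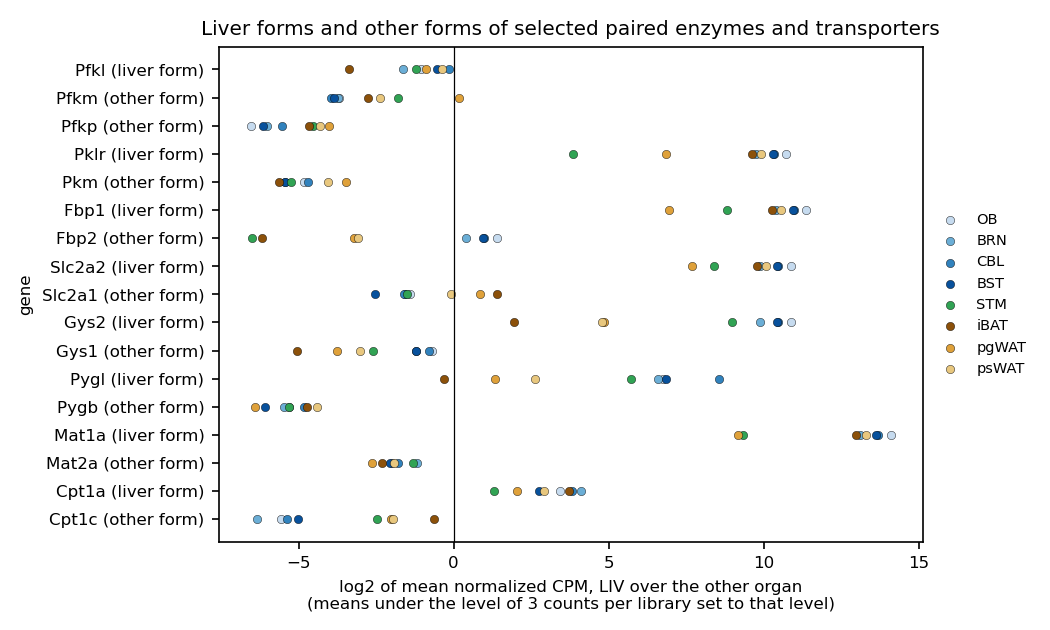
log2 of the mean normalized CPM in LIV over that in each of the 8 other organs (coloured points) for selected paired enzymes and transporters, with means under 3 counts per library set to that level. The liver forms lie to the right and the other forms to the left, except Pfkl, which lies to the left in every organ, Pygl, which lies to the left against iBAT, and Fbp2, Slc2a1 and Pfkm, which fall on both sides.

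The LIV-low genes with the largest fall included genes of membranes and the cell surface. Slc1a3, the glutamate transporter of glia, was at 0 to 0.770 normalized CPM in LIV (median 0.279) and at 6.71 to 1297 elsewhere. Tenm4 and Sema7a, of cell contact and axon guidance, were at medians of 0.272 and 0.269 in LIV, and at 3.76 or more and 3.56 or more in every other library. Parm1, Itm2a, Rasgrf2 and Htra1, a secreted serine protease, also had every LIV library below all others. Slc24a3 was the exception of the 10, with overlap at 0.263 in its lowest library elsewhere. Gm7901 and Gm6560, unnamed predicted genes, completed the set. Most of these LIV values lie near or under the level of 3 counts. That level averaged 0.543 normalized CPM over the LIV libraries, so that the size of the fall is limited by depth.

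Most structural genes of 2 lists were lower in LIV than the mean of the other organs. Of 20 extracellular matrix genes 15 were lower than the mean, 1 was higher and 4 were not called. The summed level of the list had a median of 1428 normalized CPM in LIV, above those of OB (812), BRN (783) and CBL (922), near that of BST (1477) and below those of STM (3324), iBAT (3254), pgWAT (10019) and psWAT (2339). Fn1 made up most of the LIV sum, and without it the median was 497 in LIV, below those of all 8 other organs (755 to 9651). Sparc was the only LIV-low member (3 with library totals alone, where Fn1 was no longer LIV-high), at 35.6 to 77.04 in LIV (median 51.9) and 137.7 to 4014 elsewhere. Fn1, which encodes fibronectin and is also made by hepatocytes for plasma, was the 1 higher: 693 to 1646 in LIV (median 959) and up to 605 in pgWAT. Of 24 cytoskeleton genes 15 were lower, 1 was higher and 8 were not called. Tuba1a was at 8.40 to 20.5 in LIV (median 11.3) and 21.95 to 1355 elsewhere. Actb was at 409 to 819 in LIV and 170 to 5149 elsewhere, a log2FC of -0.18 against the mean. The shares of lower genes, 15 of 20 and 15 of 24, stand beside 30.2% over all genes.

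Non-hepatocyte markers showed which other liver cells the libraries held. Of 7 Kupffer markers 5 were higher than the mean, and Clec4f, particular to Kupffer cells, ranged from 110 to 225 (median 160) with at most 4.08 elsewhere. The general macrophage genes Adgre1 and Csf1r were not called. Of 7 sinusoidal markers 6 were higher than the mean and 4 LIV-high, with Clec4g at 43.5 to 66.8, while the LIV mean of Lyve1 was 0.0691 times that of pgWAT. Of 7 stellate markers 6 were higher than the mean but only 2 LIV-high. Lrat, which stores retinol as esters, was at 11.4 to 35.4, while the LIV means of Hand2, Reln and Hgf were 0.215, 0.282 and 0.322 times those of STM, OB and pgWAT. Of 7 cholangiocyte markers 2 (Krt7 and Spp1) were higher and 2 (Cftr and Tspan8) lower, and their sum had a median of 83.3 in LIV, against 3.37 in iBAT and 2186 in STM at the ends of the range of the other organs. Krt19 was at 0.922 to 5.63 and Cftr at 0 to 0.551 in LIV. Of the erythroid markers all 5 were higher than the mean (3 with library totals alone), and their sum ranged from 337 to 1366 over the LIV libraries. Of the 4 skeletal muscle markers 3 were higher than the mean, and 2 without LIV 12 h replicate 1. Their sum had a median of 33.7 in LIV, far below those of STM (1454), iBAT (1118) and psWAT (503). It was above those of pgWAT (18.2) and the brain regions (1.17 to 9.82). The 7 neuron markers summed to 8.60 to 23.02 in LIV and the 7 adipocyte markers to 0.953 to 25.2, with Snap25 at 0 to 0.332 and Plin1 at 0 to 0.918. Gastric markers summed to at most 30.5, in LIV 8 h replicate 3, and Mog and Muc5ac had no count in any LIV library. The 5 pancreatic markers summed to at most 2.53. All 4 oligodendrocyte markers and the astrocyte markers Gfap and Aqp4 were lower in LIV. Slc1a2, a glutamate transporter of astrocytes that hepatocytes also make, was higher in LIV than the mean, at 171.5 to 314 normalized CPM (median 245).

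Liver transcripts were found at low levels in other organs. For the 100 LIV-high genes with most counts, the median level as a percentage of the LIV mean was 0.00877% in the middle OB library and 0.00890% in iBAT. It was higher in psWAT (median 0.0331%), pgWAT (0.0656%) and STM (0.147%). In pgWAT 18 h replicate 2 it was 4.45%, in STM 12 h replicate 2 2.23% and in STM 0 h replicate 3 0.892%, and all 100 genes had counts in these 3 libraries. Alb was at 3223 normalized CPM in the first. The source of these transcripts was not tested. For 828 LIV-high genes the nearest organ was pgWAT or STM, and for 340 of these (41.1%) the highest value outside LIV was in 1 of these 3 libraries.

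**Figure D4:**
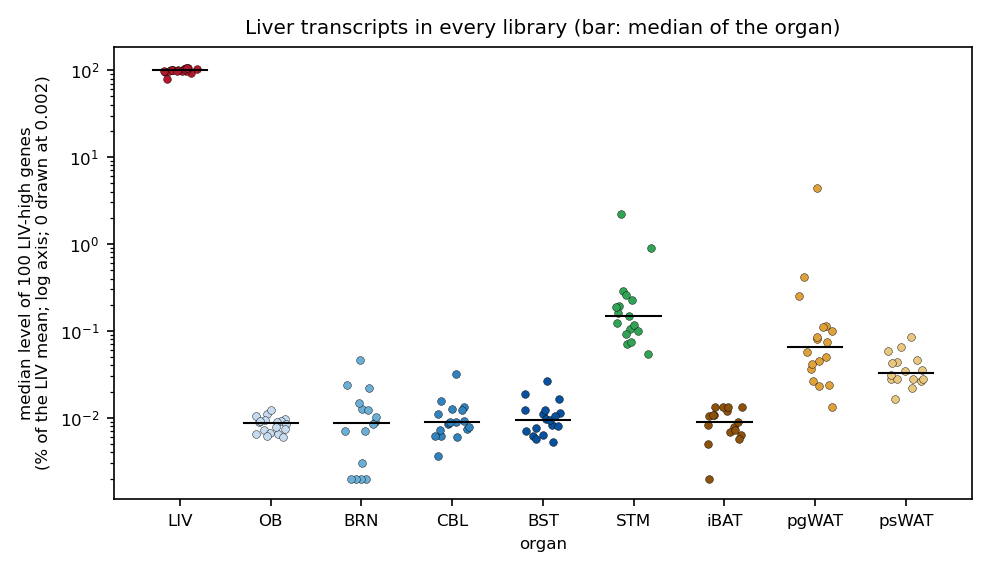
Median level of the 100 LIV-high genes with most counts in each library, as a percentage of their LIV mean on a log axis, with libraries at 0 drawn at 0.002% and bars at the organ medians. LIV libraries lie between 79.3 and 107%, the highest pgWAT library at 4.45% and the highest STM library at 2.23%.

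The liver transcriptome was narrow. At an equal depth of 3000000 counts LIV libraries gave 15810 to 16739 genes with a count (median 16469), below every library of OB, CBL, BST, STM, pgWAT and psWAT. The mean of LIV minus that of the other organ was -1564 genes for STM and -3113 for BST (permutation test on both sides, adjusted p 2.67e-05 for each, over 8 comparisons), and -2032 for BRN (adjusted p 4.57e-05). For iBAT the difference of -152.8 genes did not pass the test (adjusted p 0.505), while at 1000000 counts it was -235.2 (adjusted p 0.0444, permutation test), a call lost with mice paired (-228.6, adjusted p 0.0609). The iBAT value rests on iBAT 22 h replicate 2, with 3156101 counts and 13910 genes against 15846 to 17343 in the other iBAT libraries, and without it the difference was -319.4 (adjusted p 0.011, permutation test). LIV was below iBAT in 13 of 17 pairs of the same time and replicate number (mean paired difference -137.3, adjusted p 0.527 in the paired permutation test). The 10 most counted genes took 16.1 to 28.3% of LIV counts (median 18.8%). This was less than in STM (24.96 to 43.04%, adjusted p 2.29e-05) and iBAT (11.5 to 39.4%, adjusted p 0.00018) and more than in the other 6 organs (adjusted p 2.29e-05 for each), by the same permutation test.

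Some LIV-high genes lay close to each other on the chromosomes. Of 1405 LIV-high genes with a position 770 (54.8%) had another LIV-high gene within 100 kb, and of 1939 LIV-low genes 699 (36.1%) had another LIV-low gene. Of all 21076 tested genes with a position 24.4% had a LIV-high gene within that distance and 29.7% a LIV-low gene. There were 57 runs of at least 4 LIV-high genes, holding 307 genes. The Serpina run at chr12:103614786-104086724 (GRCm38) held 11 LIV-high genes of 16 tested, among them Serpina1a to Serpina1e. A Mup run at chr4:60418046-60759526 held 9 of 9, and the run at chr9:46228580-46299110 held all 7 genes tested: Apoa1, Apoc3, Apoa4, Gm10680, Apoa5, Zpr1 and Bud13. Both the Serpina1 and the Mup genes are tandem copies, and the part of such copies in the runs was not tested.

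Of all genes 3281 were higher in LIV than the mean of the other organs at each of the 6 fasting times and 2919 were lower at each. Both classes were chosen over all times together. Of 1461 LIV-high genes 1443 were higher than the mean of the other organs at all 6 times, and of 1982 LIV-low genes 1428 were lower at all 6. The count of genes higher ranged from 4182 at 0 h to 4808 at 12 h, and that of genes lower from 4236 at 22 h to 4960 at 8 h. A joint test asked whether the difference changed with fasting. It called 554 genes (2.55%) of all tested, and 37 of the LIV-high (2.53%) and 54 of the LIV-low genes (2.72%), shares near that of all genes. From 0 h to 22 h the difference became larger for 17 genes (0.0783%) and smaller for 14 (0.0645%). These counts rested on few mice: without replicate 2 of every time the joint test called 23 genes, and without replicate 3 it called 672. Of the lists, the ER secretory machinery had 9 of 30 genes in the joint test, the actin and tubulin cytoskeleton 3 of 24 and amino acid catabolism 2 of 27, and the other 13 lists had none. LIV 0 h replicate 3 stood apart for the ER list, with a sum of 17747 normalized CPM against a LIV median of 9727, and without replicate 3 of every time 3 of the 9 were called, as was 1 without replicate 1 or replicate 2.

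The 5 LIV-high genes with the smallest adjusted p in the joint test were Zpr1, Oat, Bud13, Slc25a30 and Tle1. Zpr1, a zinc finger protein, was at 74.7, 125.5 and 137.1 normalized CPM in the 3 LIV libraries at 0 h and at 275, 345 and 418 at 22 h, and no 0 h library reached the lowest of the fasted ones, 192.7 at 8 h. The other organs stayed between 20.8 and 69.4 (joint adjusted p 3.38e-08, edgeR). Its LIV difference rose by 1.39 ± 0.20 (SE, log2) from 0 to 22 h (adjusted p 1.47e-06). Bud13, a splicing factor subunit, was at 7.71, 15.7 and 20.02 at 0 h and at 26.3, 65.6 and 68.0 at 22 h (adjusted p 2.1e-06), with 106 in 1 library at 18 h. Both genes lie beside Apoa5 on the same strand, Zpr1 starting 1144 bases after its end and Bud13 364 bases after that of Zpr1. Slc25a30, a mitochondrial carrier, was at 21.88, 21.999 and 24.5 at 0 h, below every fasted library, and at 55.04, 102.9 and 112.2 at 22 h (adjusted p 2.1e-06). Oat, which converts ornithine to glutamate semialdehyde, was at 787, 1337 and 1390 at 0 h, fell to 535, 556 and 690 at 12 h and was at 998, 1079 and 1136 at 22 h (adjusted p 1.66e-06). Tle1, a transcriptional corepressor, was at 57.1, 82.8 and 89.8 at 0 h and 114.85, 140 and 174 at 18 h (adjusted p 3.85e-05), and it was no longer called without replicate 2 (adjusted p 0.157). The other 4 genes were called without any one replicate. All LIV libraries of 0 and 2 h were in lane 1, and there Zpr1 was at 137.1 or less at 0 h and at 214 or more at 2 h, Slc25a30 at 24.5 or less and at 42.9 or more, and Bud13 at 20.02 or less and at 27.3 or more. The 2 LIV libraries of 8 h in the same lane had Bud13 at 14.99 and 17.6, inside its range at 0 h, as were 16.3 in LIV 12 h replicate 3 and 17.4 in LIV 18 h replicate 1. The later times, from 12 h on, were all in lane 2.

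**Figure D5:**
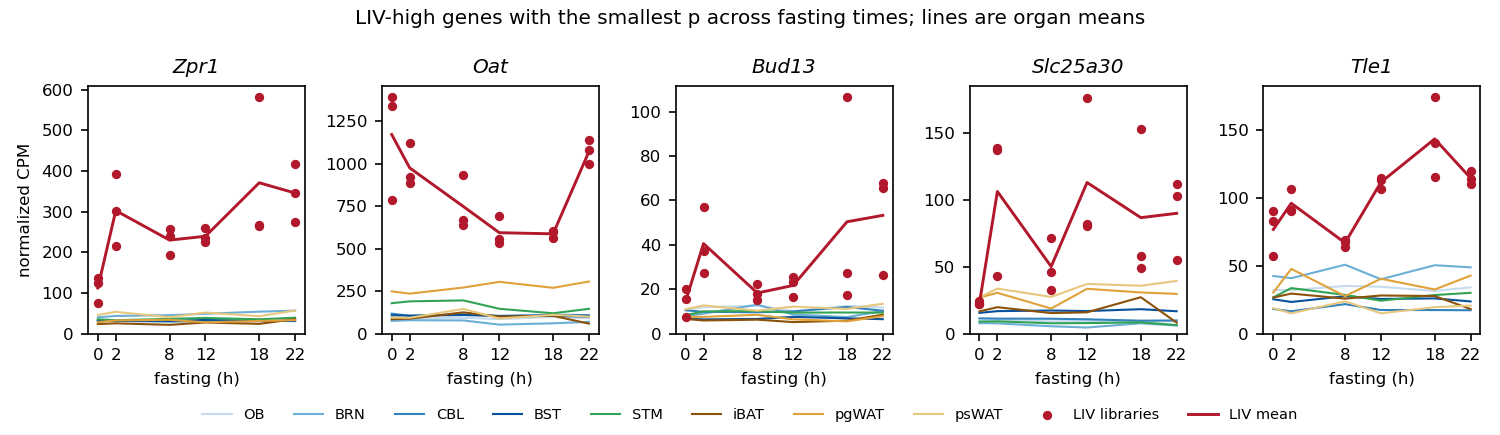
Normalized CPM by hours of fasting for the 5 LIV-high genes with the smallest adjusted p across times, with points for the 3 LIV libraries of each time, a red line for the LIV mean and thin lines for the means of the other organs. Zpr1, Bud13 and Slc25a30 have their lowest mean at 0 h, Oat is lowest at 12 and 18 h, and the other organs vary less.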

How the data were processed

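RNA from 9 organs of 18 mice was measured by poly(A) RNA-seq (stranded library kit, paired reads of 150 bases). The authors deposited 1 table of raw counts per gene, made from uniquely mapped reads with TopHat2 2.1.1 on GRCm38.p5 and HTSeq 0.9.1 with the Gencode M16 annotation. Counting was over exons in union mode. Whether it used strand is not given in the sources used here, so the counts of overlapping genes on opposite strands are uncertain. Counts of unique reads understate genes with near-identical copies. The table held 53686 rows and 162 libraries. Groups, times and replicate numbers came from the sample labels, and 6 libraries of other organs were left out by the rule that defined the comparison.

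Counts were analysed with edgeR 4.0.16 in R 4.3.3. Genes with at least 1.14 CPM (10 counts in a library of median size) in 3 libraries of 1 organ were kept (21701). TMM scaling, robust quasi-likelihood fits of organ means, and Benjamini-Hochberg adjustment over all genes tested were used. A call needed an adjusted p below 0.05 together with a log2FC beyond 1 in either direction. Changes with fasting came from a fit of organ by time, with a joint test of 5 contrasts on adjusted p alone. Values per kb used exon lengths of Gencode M21, and 49602 rows matched it. Genes per library at equal depth and shares of counts were compared by permutation tests with 100000 resamples, whose smallest possible p is 2e-05. The fits were tested on simulated data. Other tools were DESeq2 1.42.0 (an alternative), Python 3.11.15, pandas 2.3.3 and scipy 1.17.1. Alternatives were other scalings, filters, thresholds and weights, all 162 libraries, and leaving out replicates, organs or lanes. Chosen after seeing the data were leaving out libraries that stood apart, and a fit of the LIV, BRN and iBAT libraries with the lane numbers of LIV.

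Depth was 6959200 to 12451777 counts in LIV. Averaged over the LIV libraries, 3 counts correspond to 0.543 normalized CPM. Such limits cover counting error only.

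Each mouse gave all organs, and the replicate number within a time was taken as the animal that pairs the libraries. The sample titles do not state this. Deviations from the means of organ and time correlated with a median r of 0.0175 between organs of 1 mouse and of -0.012 between mice of the same time, over 2000 genes. The members and gene lists were chosen with earlier results of these data known. Genes were named by rules: the 10 LIV-high genes with the largest share of LIV counts, the 10 with the largest log2FC to the nearest organ and at least 10 normalized CPM, the 10 LIV-low genes with the largest fall and at least 10 in every other organ, the extreme members and exceptions of 16 lists, 15 enzyme pairs (some are not reported here), 5 genes of the joint test and the cell type markers. Further members of the lists were named after their values were seen.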

Additional observations from a re-analysis of the deposited data

Results flagged for a closer look

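The LIV difference from the other organs varied between fasting times for 5 named LIV-high genes, by the joint test in edgeR with Benjamini-Hochberg adjustment. The adjusted p was 3.38e-08 for Zpr1, 1.66e-06 for Oat, 2.1e-06 for Bud13, 2.1e-06 for Slc25a30 and 3.85e-05 for Tle1. From 0 to 22 h the log2 difference rose by 1.39 for Zpr1, 1.71 for Bud13 and 2.14 for Slc25a30. It changed by -0.03 for Oat, whose lowest values were at 12 and 18 h, and by 0.53 for Tle1. All 3 LIV libraries of 0 h lay below every fasted LIV library for Zpr1 and for Slc25a30. For these genes the values of 0 h and 2 h also did not overlap within lane 1, which held all LIV libraries of both times.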

How the results depend on the processing

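Of 2744 log2FC values of the 98 genes chosen by the naming rules under the alternatives, 2722 kept their direction and call, 14 lost the call and 5 gained it. The sign turned for Hmgcs1 with library totals alone (-0.086) and for Actb without STM (0.17) or psWAT (0.10), neither of which was called in the main analysis. Of 494 counts and other summary values 457 stayed within 1.5 times the main value or kept their call. With the animal as a replicate block, 1472 genes were LIV-high, 1966 LIV-low and 532 passed the joint test, and no call of these 98 genes changed.

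Library totals alone moved the counts to 2799 genes higher than the mean, 3157 LIV-low genes, and 3906, 3803, 4056, 4124, 2411 and 2183 genes higher than OB, BRN, CBL, BST, pgWAT and psWAT, with 12929 lower than psWAT. In order of fasting time this scaling gave 2523, 2539, 2984, 2921, 2918 and 2806 genes higher than the mean, and 7940, 8135, 7397, 7239 and 6723 lower at the times other than 8 h. Adjusted p alone, with no fold threshold, gave 7788 genes higher than the mean, 2554 LIV-high, 3176 LIV-low, and 7329, 6930, 6839 and 6312 higher than STM, iBAT, pgWAT and psWAT. Leaving out each replicate gave 23 to 672 genes in the joint test, and from 0 to 22 h 1 to 22 with a larger and 5 to 12 with a smaller difference. The cause was not tested, besides the fewer libraries. Among libraries with lane numbers 1 and 2, an alternative chosen after seeing the data, 3691 genes were lower in LIV than in iBAT, with 2 iBAT libraries. At 1000000 counts the difference in genes between LIV and iBAT was -235.2 (adjusted p 0.0444, permutation test; -228.6 and 0.0609 with mice paired), and without iBAT 22 h replicate 2 it was -319.4 at 3000000 counts (adjusted p 0.011). At 3000000 counts with mice paired it was -137.3, both of these also chosen after seeing the data. For iBAT the difference in the share of the 100 most counted genes was -2.16 percentage points (adjusted p 0.0934).

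Depth limits the LIV-low genes, many of which lie under 3 counts in LIV. Organ and sequencing lane or run cannot be told apart, nor can, for white fat, organ and the extraction kit. All p-values rest on mice of 1 sex and strain.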
